A study of Mus musculus with 6 samples.

Results

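The aryl hydrocarbon receptor (AHR) pathway was followed through 9 genes in colon epithelial cells of mice given atorvastatin or vehicle. They were chosen by symbol, though with earlier results of these data known: Ahr, Arnt, Ahrr, Cyp1a1, Cyp1a2, Cyp1b1, Tiparp, Nqo1 and Aldh3a1. These are 9 of the 52550 Ensembl gene identifiers listed for each library. The treated group was male Apc Min/+ mice, 5 to 6 weeks old, gavaged with atorvastatin at 20 mg/kg on alternate days. Its comparator was Apc Min/+ mice of the same sex and age gavaged with the vehicle, 2% Tween 80. All animals of both groups thus carried the Min allele of Apc, a truncating mutation that gives rise to intestinal adenomas, and no group without it was analysed here. There were 3 RNA-seq libraries per group, numbered in the labels with no word on whether they stem from separate mice. A p-value here thus speaks of the spread among libraries, part of which may be technical.

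AHR is a ligand-activated transcription factor that waits in the cytoplasm bound to HSP90 and its co-chaperones, among them p23. On binding a ligand it enters the nucleus, pairs with ARNT and binds the DNA core GCGTG. Indoles and other tryptophan catabolites of gut bacteria are among its ligands. The CYP1 monooxygenases are its classic targets and break ligands down, while AHRR and TIPARP restrain the receptor. In the mouse gut, AHR is known for maintaining intraepithelial and innate lymphoid cells and for a role in the epithelium itself. The title of the series names microbiota-derived tryptophan catabolites, and the comparison here asks how the genes of this pathway stood in epithelium exposed to the statin.

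The AHR core was looked for in the promoters of the members, since the pathway acts through it. Promoter windows of 300 bases, 250 before and 50 after the transcription start, were taken from RefSeq (GRCm38.p6) and were found for 7 of the 9 members. Tiparp is shown because it was the best expressed classic target with a match, and Ahrr and Cyp1a1 because they held the core but were near or at 0. Each sequence runs 5′ to 3′ on the gene's strand, and capitals mark GCGTG or its reverse complement CACGC.
Tiparp, chr3:65528197-65528496, plus strand: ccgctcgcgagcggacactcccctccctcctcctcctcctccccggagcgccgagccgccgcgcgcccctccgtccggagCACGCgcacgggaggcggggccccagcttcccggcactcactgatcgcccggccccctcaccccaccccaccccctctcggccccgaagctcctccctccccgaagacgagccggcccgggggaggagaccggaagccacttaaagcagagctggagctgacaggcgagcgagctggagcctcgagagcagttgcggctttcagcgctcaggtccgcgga
Ahrr, chr13:74292282-74292581, minus strand: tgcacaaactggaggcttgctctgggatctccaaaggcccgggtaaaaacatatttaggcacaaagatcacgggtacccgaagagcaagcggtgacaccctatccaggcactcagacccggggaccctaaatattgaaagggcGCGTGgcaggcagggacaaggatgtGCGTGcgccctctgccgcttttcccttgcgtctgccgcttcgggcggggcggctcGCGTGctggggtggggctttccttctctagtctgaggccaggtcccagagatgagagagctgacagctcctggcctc
Cyp1a1, chr9:57697363-57697662, plus strand: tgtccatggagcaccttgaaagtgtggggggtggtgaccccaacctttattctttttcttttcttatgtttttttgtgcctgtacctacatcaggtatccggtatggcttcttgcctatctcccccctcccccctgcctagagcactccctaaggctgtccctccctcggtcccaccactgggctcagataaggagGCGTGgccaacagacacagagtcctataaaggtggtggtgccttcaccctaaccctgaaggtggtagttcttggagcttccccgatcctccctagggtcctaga

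Of the 7 members with a window, 5 held GCGTG on either strand (Tiparp, Arnt, Ahrr, Cyp1a1 and Cyp1b1). Of all 32851 promoter windows in the same set, 32.4% did. These 5 windows held 73.7, 59.3, 60.3, 54.0 and 58.3% G and C, in that order. The Nqo1 and Cyp1a2 windows held 53.7% and 49.7%. The share over all windows was not matched for base content. The Ahrr window had 3 matches, at 107, 82 and 27 bases before the start, and the last of these also matched the longer form TNGCGTG, which 5.07% of all windows held. The Tiparp match began 170 bases before the start, on the opposite strand, and the Cyp1a1 match 54 bases before it. Neither form was found in the Nqo1 and Cyp1a2 windows. The antioxidant response element TGACNNNGC, through which NRF2 acts, was found in the Arnt window, with 2 matches, and in 12.4% of all windows. ACGTG, the only form of the hypoxia response element that was searched for, was found in none of the 7 and in 19.6% of all windows. The other form of that element has the letters of the AHR core, so these windows cannot be said to lack the element. A match describes these letters in this window only.

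The receptor and its partner were both expressed, and Tiparp and Nqo1 stood at higher levels than Ahr and Arnt in both groups. The CYP1 genes and Aldh3a1 were at or close to 0 in atorvastatin and control libraries alike. Values are FPKM, which corrects fragment numbers for the length of a gene and the size of a library, so levels can be compared between genes. A gene was tested where it reached 1 FPKM in at least 3 of the 6 libraries. That left 4 members, Ahr, Arnt, Tiparp and Nqo1, and 5 members untested. The lowest mean among the tested members was 4.40 FPKM (Ahr) and the highest among the untested was 0.0411 FPKM (Ahrr), both over 6 libraries, so no member lay near the limit.

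None of the 4 tested members differed between atorvastatin and control in limma's test across 11644 genes (Benjamini-Hochberg adjusted p of 0.681 to 0.830), and none did at an unadjusted p under 0.05. Calls made up 0.404% of all tested genes in this comparison, 0.155% being higher and 0.249% lower with atorvastatin, and 12.0% had an unadjusted p under 0.05. Groups that did not overlap were seen for 18.1% of all tested genes and for none of the 4 members. The log2 fold change was below 0 for 3 of the 4, as for 42.7% of all tested genes, with a median of -0.09 for the 4, beside 0.02 over all tested genes. The count of 47 called genes was 13 and 18 without atorvastatin replicates 1 and 3, and 7, 30 and 72 without control replicates 1, 2 and 3. The members' count was 0 without each library in turn.

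**Figure D1:**
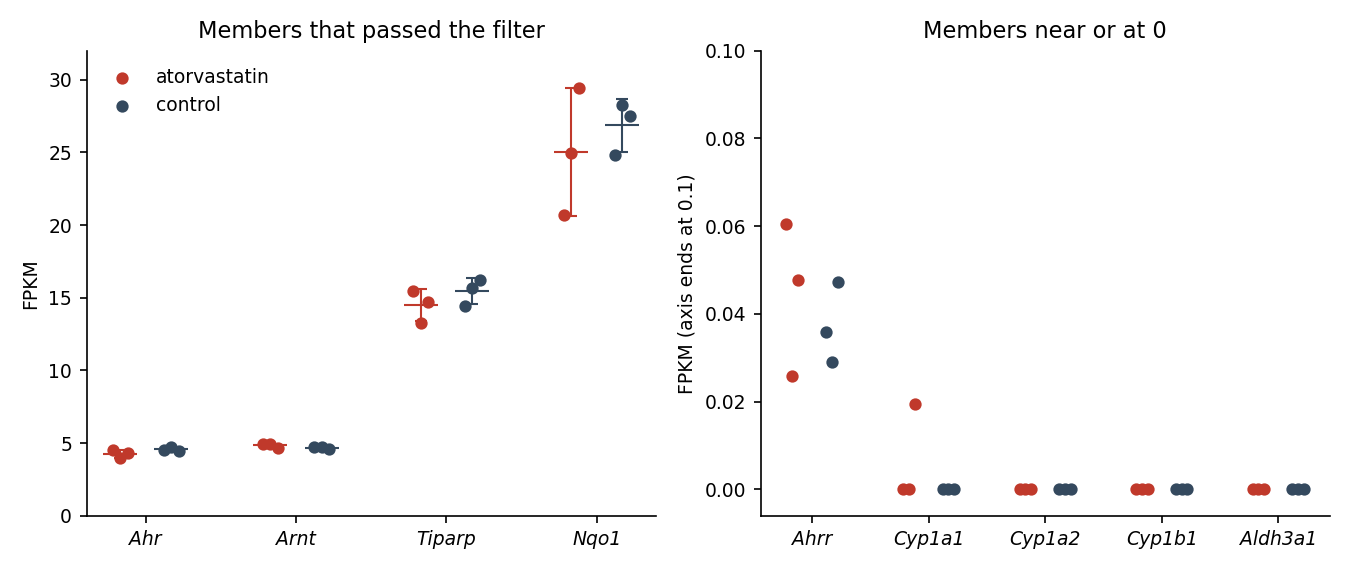
FPKM of the 9 genes in each atorvastatin and control library, with the 4 tested genes on the left (points are libraries, bars the mean and SD of 3) and the 5 untested genes on the right, on an axis that ends at 0.1 FPKM with points only. The groups overlap in every tested gene, and Ahrr and 1 value of Cyp1a1 are the only entries above 0 on the right.

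Ahr, which encodes the receptor (ENSMUSG00000019256, chromosome 12, 35497974 to 35535038, minus strand), had 4.50, 3.94 and 4.30 FPKM in the atorvastatin libraries and 4.49, 4.76 and 4.42 FPKM in the control libraries. Atorvastatin replicates 2 and 3 lay below the control range and replicate 1 inside it. The means were 4.24 ± 0.28 FPKM with atorvastatin and 4.56 ± 0.18 FPKM in control (SD, n = 3 each). Ahr had a log2 fold change of -0.08 ± 0.06 (SE; limma adjusted p = 0.681). Its 95% interval ran from -0.23 to 0.06, that is from 0.851-fold to 1.05-fold on the FPKM + 1 scale. Atorvastatin replicate 2 was the lowest library for Ahr and also for Tiparp, and without it the log2 fold change of Ahr was -0.04.

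Arnt encodes the partner that AHR shares with the hypoxia-inducible factors (ENSMUSG00000015522, chromosome 3, 95434388 to 95497240, plus strand). It had 4.93, 4.93 and 4.69 FPKM with atorvastatin and 4.73, 4.72 and 4.61 FPKM in control. Its groups met, since the lowest atorvastatin library lay between control libraries. The log2 fold change was 0.04 ± 0.05 (limma adjusted p = 0.830), with an interval of -0.08 to 0.16, or 0.944-fold to 1.12-fold. Arnt varied least of the tested members, with a coefficient of variation of 2.93% in atorvastatin and 1.41% in control libraries.

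Ahr and Arnt stood next to each other in the order of levels. In the control libraries their ranges overlapped, while in the atorvastatin libraries every Arnt value lay above every Ahr value. The ratio of Ahr to Arnt, formed after these values were seen, was 0.912, 0.798 and 0.918 with atorvastatin and 0.948, 1.01 and 0.958 in control. Each atorvastatin library thus had a lower ratio than each control library. An exact two-sided permutation test of the ratio gave p = 0.1, the smallest value this test can give with 3 against 3 libraries, and it was run on a ratio picked for its values.

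Tiparp encodes an ADP-ribosyltransferase that is induced by AHR and modifies the receptor to curb it (ENSMUSG00000034640, chromosome 3, 65528410 to 65555518, plus strand). It had 15.5, 13.3 and 14.7 FPKM with atorvastatin and 14.5, 15.7 and 16.3 FPKM in control. The lowest library was an atorvastatin one and the highest a control one, and the rest were interleaved. The log2 fold change was -0.09 ± 0.07 (limma adjusted p = 0.701), with an interval of -0.26 to 0.08, or 0.837-fold to 1.06-fold. Without atorvastatin replicate 2 the log2 fold change of Tiparp was -0.03, and over the other libraries left out in turn it ran from -0.14 to -0.06. Tiparp lay at the 75.8th percentile of level among the tested genes, against 39.2 for Ahr and 41.5 for Arnt.

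Ahrr, the repressor that competes with AHR for ARNT and is itself an AHR target (ENSMUSG00000021575, chromosome 13, 74211118 to 74292331, minus strand), was near 0 in every library. It had 0.0604, 0.0259 and 0.0477 FPKM with atorvastatin and 0.0359, 0.0290 and 0.0473 FPKM in control. The atorvastatin values enclosed the control values, and an exact two-sided permutation test gave p = 0.6. Ahrr and Tiparp, whose promoter windows both held the AHR core, thus stood far apart in level.

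Nqo1 encodes a quinone reductase that both AHR and NRF2, the sensor of oxidative and electrophilic stress, are known to induce (ENSMUSG00000003849, chromosome 8, 107388225 to 107403206, minus strand). It was the most abundant member, at 20.7, 25.0 and 29.4 FPKM with atorvastatin and 24.8, 28.3 and 27.5 FPKM in control. The atorvastatin libraries held the lowest and the highest value of the 6. Its log2 fold change was -0.11 ± 0.12 (limma adjusted p = 0.793). The interval, -0.40 to 0.18 or 0.759-fold to 1.13-fold, was the widest of the tested members. The coefficient of variation of Nqo1 was 17.5% in atorvastatin and 6.81% in control libraries. Without atorvastatin replicate 1 the log2 fold change of Nqo1 was 0.02, so its sign rested on that library.

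The genes of the CYP1 enzymes, the classic readout of AHR activation, were at or near 0 in both groups. Cyp1a1 (ENSMUSG00000032315, chromosome 9, 57687928 to 57703824, plus strand) was listed at 0 in atorvastatin replicates 1 and 2 and in all 3 control libraries. Atorvastatin replicate 3 listed it at 0.0194 FPKM. Cyp1a2 (ENSMUSG00000032310, chromosome 9, 57676937 to 57683703, minus strand), best known from liver, was listed at 0 in all 6 libraries. So was Cyp1b1 (ENSMUSG00000024087, chromosome 17, 79701537 to 79715061, minus strand), which is best known from cells outside the liver. Aldh3a1, an aldehyde dehydrogenase of the classic AHR gene battery (ENSMUSG00000019102, chromosome 11, 61207537 to 61218421, plus strand), was listed at 0 in all 6 libraries too. No fold change is given for these genes, and with the depth unknown no upper limit could be set.

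A 0 in such a table could also mean a failed estimate. None of 75 cytosolic ribosomal protein genes, which every cell uses, was at 0 in any library. None of them was under 1 FPKM either, so they cannot tell whether a 0 of a low gene was a failed estimate. Cyp1a1 and Cyp1a2 lie head to head on chromosome 9 with RefSeq starts 13.96 kb apart and resemble each other. Of the 2648 stretches of 50 bases in the longest Cyp1a1 transcript (GENCODE M21), 94 also occur in Cyp1a2 (3.55%), so reads could be confused between them only over a small part. Nqo1, Arnt, Cyp1b1 and Aldh3a1 shared no such stretch with another gene.

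Some members overlap other annotated genes, and the sources used here do not give the strand setting of the counting. The antisense gene 4931440P22Rik shares 4.23% of the 50-base stretches of Tiparp, and it was listed at 0.113 to 0.176 FPKM. Gm48236 shares 1.42% of those of Ahr and was listed at 0 to 0.0288 FPKM. Gm42672 overlaps Arnt on the same strand and was at 0.277 to 0.514 FPKM. Without strand, reads of Tiparp and Ahr cannot be told apart from those of their antisense neighbours where they overlap. All 3 overlapping genes were far below the members they overlap.

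The low CYP1 values were not shared by all cytochrome P450 genes of this tissue. Of 99 P450 genes found by symbol, 26 averaged 1 FPKM or more over the 6 libraries and 11 averaged 10 FPKM or more. Another 58 were under 0.1 FPKM in all 6 libraries, and 32 of these were listed at 0 throughout. Cyp1a1 ranked 57th by mean level, and Cyp1a2 and Cyp1b1 were among the 32. Cyp2s1, a P450 that AHR is also known to induce, ranked 8th, with 19.8, 21.0 and 23.1 FPKM in atorvastatin libraries and 19.3, 22.5 and 17.96 FPKM in control libraries. Its groups overlapped (log2 fold change 0.10, limma adjusted p = 0.749), and its log2 fold change ran from 0.03 without control replicate 3 to 0.18 without control replicate 2. P450 subfamilies hold similar copies, so single levels within them are uncertain.

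**Figure D2:**
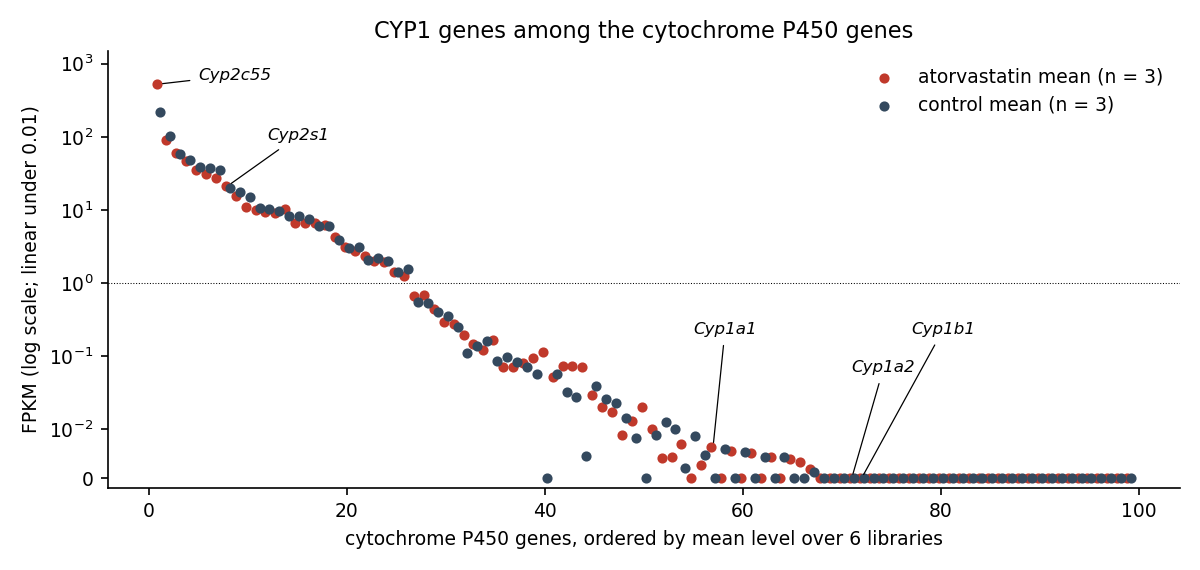
Mean FPKM of 99 cytochrome P450 genes in 3 atorvastatin and 3 control libraries, ordered by the mean over all 6, on an axis that is logarithmic above 0.01 FPKM and linear below; the dotted line marks 1 FPKM. Cyp1a1 ranks 57th, Cyp1a2 and Cyp1b1 are listed at 0, and the AHR-inducible Cyp2s1 ranks 8th.

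The other genes of the pathway, taken from 5 lists of 61 genes, were described by their counts. Of the 53 that passed the filter none was called by limma at an adjusted p under 0.05. An unadjusted p under 0.05 was seen for 7 of the 53, near the share of 12.0% over all tested genes. Fold changes were positive for 26 and negative for 27, with a median of -0.0006 (log2) beside 0.02 over all tested genes. The groups did not overlap in 12 of the 53 (22.6%), where 18.1% of all tested genes did not overlap.

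**Figure D3:**
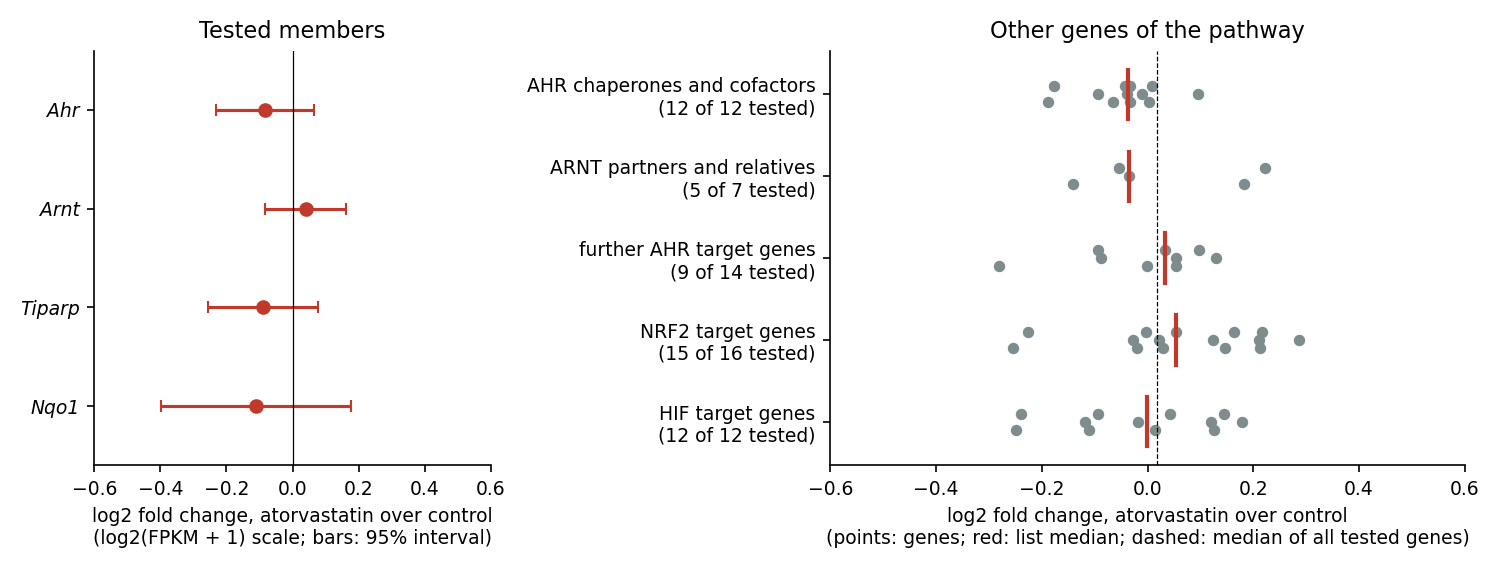
Log2 fold changes, atorvastatin over control, on the log2(FPKM + 1) scale, for the 4 tested members with 95% intervals (left) and for the tested genes of 5 further lists (right; red lines are list medians, the dashed line the median of all tested genes). All 4 intervals include 0, and the list medians lie between -0.04 and 0.05.

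Genes of the chaperone complex and the cofactors of AHR were expressed throughout, and all 12 on the list were tested. None was called, and 1 had an unadjusted p under 0.05, beside 12.0% of all tested genes. The median log2 fold change was -0.04, with 3 positive and 9 negative, where 42.7% of all tested genes were negative. Hsp90ab1, the constitutive HSP90 that holds AHR in the cytoplasm, was the most abundant, at 501, 476 and 458 FPKM with atorvastatin and 545, 521 and 556 FPKM in control. Every atorvastatin library lay below every control library, with a log2 fold change of -0.18 (limma unadjusted p = 0.0191, adjusted p = 0.300).

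Its inducible form Hsp90aa1 had 141 ± 12.1 FPKM with atorvastatin and 162 ± 26.8 FPKM in control (log2 fold change -0.19, limma adjusted p = 0.618). The log2 fold change of Hsp90aa1 was -0.06 once control replicate 3 was left out, and -0.12 once atorvastatin replicate 1 was. The p23 gene Ptges3 averaged 32.4 ± 0.9 FPKM with atorvastatin and 33.3 ± 2.7 FPKM in control. Ddb1, an adaptor of the CUL4B ubiquitin ligase in which AHR can act, and the coactivator gene Ncoa3 had log2 fold changes of 0.09 and -0.09 (limma adjusted p = 0.567 and 0.635), and that of Ncoa3 was -0.06 without control replicate 1.

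The partners and relatives of ARNT compete for it or share its protein family, and 5 of the 7 on the list were tested, with none called. Epas1, which encodes the hypoxia-inducible factor HIF-2α, had 28.3, 26.6 and 24.1 FPKM with atorvastatin and 29.2, 29.4 and 28.6 FPKM in control. Its groups did not overlap, and its log2 fold change was -0.14 (limma adjusted p = 0.459). Hif1a had 28.2 ± 2.0 FPKM with atorvastatin and 28.96 ± 3.28 FPKM in control, so both HIF subunit genes stood above Arnt and Ahr in level. The clock genes Bmal1, listed under its older symbol Arntl, and Npas2 had log2 fold changes of 0.22 and 0.18 (limma adjusted p = 0.541 and 0.552). Control replicate 1 was the lowest library for both, and without it their log2 fold changes were 0.08 and 0.09. That of Epas1 was -0.08 without atorvastatin replicate 3. Arnt2, the ARNT paralogue known from neurons, was at 0.275 to 0.319 FPKM with atorvastatin and 0.228 to 0.309 FPKM in control, and Sim2 was listed at 0 in all 6 libraries.

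Among further AHR target genes, 9 of 14 were tested and none was called, with a median log2 fold change of 0.03 (5 positive, 4 negative). Xdh, which encodes xanthine dehydrogenase, had 12.7, 14.1 and 12.0 FPKM with atorvastatin and 17.6, 16.1 and 14.2 FPKM in control. The highest atorvastatin library lay just under the lowest control library. The log2 fold change of Xdh was -0.28, with an interval of 0.711-fold to 0.952-fold, an unadjusted p of 0.0158 and a limma adjusted p of 0.280. Nfe2l2, which encodes NRF2 and is reported to be an AHR target, had 73.2, 70.6 and 70.6 FPKM with atorvastatin and 75.1, 77.1 and 76.8 FPKM in control, again with no overlap (log2 fold change -0.09, limma adjusted p = 0.506). Slc7a5, an amino acid transporter gene, had 5.25 ± 0.11 FPKM with atorvastatin and 5.67 ± 0.68 FPKM in control, a log2 fold change of -0.09 that was -0.0060 without control replicate 3.

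The glucuronosyltransferase genes Ugt1a6a and Ugt1a6b, which belong to the AHR gene battery, varied more within the groups than between them. Ugt1a6a had 33.2, 17.4 and 19.3 FPKM with atorvastatin and 38.5, 19.0 and 13.4 FPKM in control. Replicate 1 was the highest library in each group for both genes. The interval of Ugt1a6a ran from 0.528-fold to 2.04-fold, so a change in either direction within that range remained possible. Transcripts of the Ugt1a locus share their last exons, so the split between them is uncertain.

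Il10ra, Ido1, Ido2, Il22 and Gsta2 were under the filter. Ido1, an interferon-inducible enzyme that starts the breakdown of tryptophan to kynurenine, itself an AHR ligand, had 0.153, 0.321 and 0.177 FPKM with atorvastatin and 0.623, 0.346 and 0.491 FPKM in control. Il10ra, the receptor gene for interleukin 10, had 0.117, 0.0769 and 0.0752 FPKM with atorvastatin and 0.209, 0.215 and 0.106 FPKM in control. Il22, a cytokine gene of AHR-dependent lymphocytes, was at 0 to 0.0972 FPKM with atorvastatin and 0.0431 to 0.0839 FPKM in control.

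NRF2 targets were followed because Nqo1 belongs to both pathways. Of 16 genes 15 were tested and none was called, with a median log2 fold change of 0.05 (10 positive, 5 negative). An unadjusted p under 0.05 was seen for 4 of the 15, beside 12.0% of all tested genes. Those 4 did not share a direction. Osgin1, an oxidative stress-induced growth inhibitor gene, had 2.87, 2.51 and 3.25 FPKM with atorvastatin and 3.58, 3.73 and 3.54 FPKM in control (log2 fold change -0.26, limma adjusted p = 0.270). Gsr, glutathione reductase, had 36.2, 38.0 and 37.2 FPKM with atorvastatin and 33.4, 31.1 and 34.9 FPKM in control (log2 fold change 0.16, limma adjusted p = 0.328).

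Me1, which encodes the NADPH-producing malic enzyme, and Gsta4, a glutathione transferase gene for lipid peroxidation products, had log2 fold changes of 0.21 and 0.29 (limma adjusted p = 0.374 and 0.377), and that of Gsta4 was 0.16 without atorvastatin replicate 3. The groups of Osgin1, Gsr, Me1 and Gsta4 did not overlap, that is 4 of the 15 tested (26.7%), beside 18.1% of all tested genes. Nqo1 shared with Gsta4 its highest value, in atorvastatin replicate 3, but its groups overlapped. Txnrd1, thioredoxin reductase, was at 34.3 ± 0.2 FPKM with atorvastatin and 34.9 ± 1.05 FPKM in control.

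Targets of the hypoxia-inducible factors, which also bind DNA with ARNT, were all tested. None of the 12 was called, and 1 had an unadjusted p under 0.05, beside 12.0% of all tested genes. The median log2 fold change was -0.0015, with 6 in each direction. The glycolytic gene Pgk1 had 126, 130 and 120.5 FPKM with atorvastatin and 117, 103 and 112 FPKM in control, with no overlap (log2 fold change 0.18, limma unadjusted p = 0.0254, adjusted p = 0.331). Ankrd37 and the mitophagy gene Bnip3 had log2 fold changes of -0.24 and -0.25 (limma adjusted p = 0.462 and 0.509). That of Bnip3 was -0.12 without control replicate 1, and that of Ankrd37 ran from -0.15 without control replicate 2 to -0.36 without control replicate 3. Ero1a, an oxidase of the endoplasmic reticulum listed as Ero1l, had 13.7 ± 0.2 FPKM with atorvastatin and 14.7 ± 0.5 FPKM in control (limma adjusted p = 0.509).

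The genes whose profile over the 6 libraries lay nearest to that of a member were found by the root-mean-square difference of centred log2(FPKM + 1) values, among 6230 named genes averaging 5 FPKM or more. For Ahr the nearest were Ginm1 and Cdc42ep4, at differences of 0.0188 and 0.0240, where the profile of Ahr itself had a root-mean-square deviation of 0.0672. For Nqo1 they were Hexim1, Lin37 and Cog6, at 0.0591, 0.0622 and 0.0776, against 0.162 for Nqo1. None of these genes was called, but they were picked for likeness to members that were not called, so this adds nothing further. Cyp1a1 was under the filter and was not matched.

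The isolate was checked for the cells that could carry AHR. All 8 epithelial markers were above 1 FPKM in both groups, with sums of 7542 to 9000.2 FPKM with atorvastatin and 7701 to 8959 FPKM in control. The 12 markers of T, NK and innate lymphoid cells, in which mouse AHR is active, summed to 21.5, 17.8 and 19.5 FPKM with atorvastatin and 32.5, 29.3 and 19.5 FPKM in control. The sums overlapped between the groups through control replicate 3. Of 7 tested lymphoid markers 6 had a negative fold change, where 42.7% of all tested genes had one. None was called by limma, and 5 had an unadjusted p under 0.05, where 12.0% of all tested genes had one.

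Macrophage and dendritic cell markers summed to 3.02 to 3.64 FPKM with atorvastatin and 4.29 to 9.53 FPKM in control, with 2 of 8 at 1 FPKM or more in each group. B and plasma cell markers summed to 2.58 to 3.35 FPKM with atorvastatin and 5.13 to 11.5 FPKM in control. Fibroblast, muscle and endothelial markers were each under 1 FPKM in sum in all libraries, and 9 of the 15 were under 0.1 FPKM throughout. These leukocyte sums were lower on average with atorvastatin, as were the levels of Ido1 and Il10ra, and their part in any value of the pathway was not tested. In bulk samples, fewer cells of a type and less RNA per cell cannot be told apart.

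**Figure D4:**
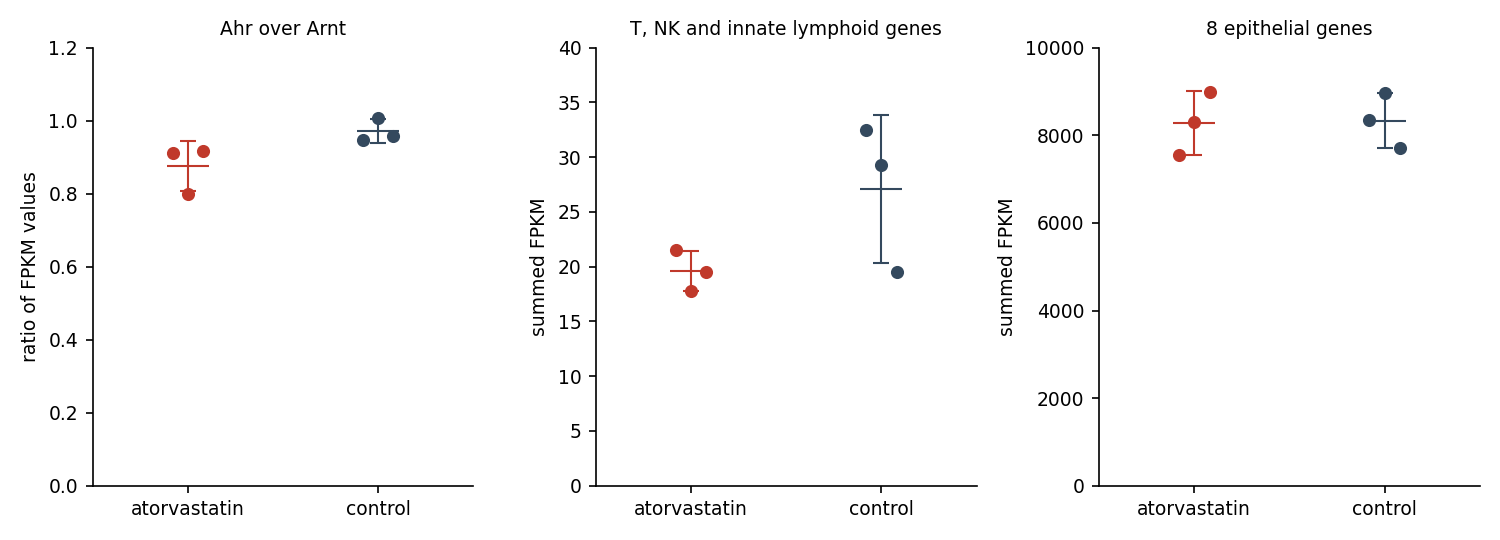
Ratio of Ahr to Arnt FPKM, summed FPKM of 12 T, NK and innate lymphoid markers and summed FPKM of 8 epithelial markers in 3 atorvastatin and 3 control libraries (points are libraries, bars the mean and SD). The ratio is lower in each atorvastatin library than in any control library, the lymphoid sums run from 17.8 to 21.5 with atorvastatin and from 19.5 to 32.5 in control, and the epithelial sums overlap.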

How the data were processed

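The authors deposited 1 FPKM value per gene for each library. The submitters' processing notes name the mm10 build, Bowtie and FastQC 0.11.2. Not given in the sources used here are the counting tool, annotation, strand setting and handling of reads that map to several places. The unit was read from the values, whose totals differed between libraries (407857 to 430832). The smallest non-zero values were 1e-06, so whole reads were not recovered, no count test was used and the depth is unknown; 11456 to 11655 genes per library reached 1 FPKM. The labels name no batch. Symbols were looked up in a gene table (99.72% of identifiers matched), and gene coordinates from GENCODE M21 (GRCm38, which mm10 denotes).

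The 11644 genes that reached 1 FPKM in 3 or more libraries were fitted as log2(FPKM + 1) with limma 3.58.1 in R 4.3.3 (trended, robust empirical Bayes, two-sided), atorvastatin against control, with Benjamini-Hochberg adjusted p under 0.05. The scripts were tested on simulated data. Fold changes are on that scale, which understates changes of low genes. For untested members an exact permutation test was used. Named genes are the 9 members, up to 4 genes of smallest p per list, and genes of nearest profile for Ahr and Nqo1 (the 3 nearest; 1 gene this rule selects is not reported here); list genes beyond these (Ptges3, Arnt2, Sim2, Ugt1a6a, Ugt1a6b, Txnrd1 and those under the filter) were named after their values were seen. Members and lists were chosen with earlier results of these data known. Alternatives covered the pseudocount, the filter, the scaling, the variance model, the replicate number and each library left out.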

Additional observations from a re-analysis of the deposited data

How the results depend on the processing

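The count of called members was 0 under all 17 alternatives, and so was the count in each of the 5 further lists. Ahr, Arnt and Tiparp kept the sign of their log2 fold change in every alternative that could fit them, at -0.12 to -0.04, 0.02 to 0.06 and -0.14 to -0.03. Nqo1 ran from -0.23 to 0.02 and reversed once, to 0.015 without atorvastatin replicate 1. Under the filter of 5 FPKM, Ahr and Arnt were not tested, nor were Osgin1, Me1, Ankrd37 and Bnip3. The 20 genes named from the lists kept sign and side of the threshold in 334 of 336 values, but several changed in size by over 1.5 times with a library left out, as given beside them. The exceptions in sign were Hif1a without atorvastatin replicate 3 (0.0053) and without control replicate 3 (0.030), in a range of -0.13 to 0.030 with a library left out. Over all genes, the count of 47 was 2 with no filter on low values, 1 with the replicate block, and 7 to 72 with a library left out. Same-numbered libraries of the groups did not deviate together over all genes (correlations across genes of -0.139, -0.106 and 0.0136). The labels do not say whether the numbers link the groups, and these correlations do not cover a link confined to some genes. No scaling moved the median of all genes by over 0.03 (log2). With 3 libraries per group, changes within the intervals of the 4 tested members remain possible, and the 5 untested members have no interval.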
